A study of Homo sapiens with 18 samples.

Results

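BTG1, BTG2, BTG3, TOB1 and TOB2 form most of the BTG/TOB antiproliferative family, and their RNA was followed here across drug treatments of sarcoma cells. The members were taken by gene symbol, as 5 of the 23368 gene rows in the deposited tables. They were chosen with earlier results of these data known. SJSA cells, a human osteosarcoma line that carries amplified MDM2 and CDK4, were sequenced in 18 libraries, 3 replicates in each of 6 conditions. DMSO was the vehicle control. Nutlin, an MDM2 antagonist that frees p53, was present for the last 6 h, at 20 µM by the labels (the study's scheme also writes a lower concentration). PD0332991 (Palbociclib), an inhibitor of CDK4 and CDK6, was used at 10 µM, either over the whole 30 h before harvest (PD30) or only until 24 h, with the drug then taken away (PD24). N+PD24 and N+PD30 are the same schedules with Nutlin in the last 6 h. All conditions share the one cell line, so nothing here reaches beyond it, and the labels do not say whether the replicates are separate cultures, so the p-values measure the spread between these libraries.

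Proteins of this family share an amino-terminal BTG domain that binds the deadenylases CNOT7 and CNOT8 of the CCR4-NOT complex, which shortens poly(A) tails and so starts mRNA decay. BTG1 and BTG2 are short proteins known for restraining proliferation and for keeping lymphocytes quiescent, and BTG2 is a classical transcriptional target of p53. BTG3 (also called ANA) has likewise been described as a p53 target and as a binder of E2F1. TOB1 and TOB2 carry in addition carboxy-terminal motifs that bind the cytoplasmic poly(A)-binding protein PABPC1, and TOB1 is known as a partner of SMAD proteins in osteoblasts. The comparisons ask how p53 release and CDK4/6 inhibition, alone and together, are reflected in the RNA of these genes.

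The 3 members that moved furthest under one or the other drug are shown here by the start of their genes, from 250 bases before to 50 bases after the RefSeq start, with positions on GRCh37, so that the letters can be set beside the values. Capitals mark CCAAT, an element found in many promoters, and the other letters are in lower case, written 5′ to 3′ on the strand of the gene.
BTG2, chr1:203274397-203274696, plus strand: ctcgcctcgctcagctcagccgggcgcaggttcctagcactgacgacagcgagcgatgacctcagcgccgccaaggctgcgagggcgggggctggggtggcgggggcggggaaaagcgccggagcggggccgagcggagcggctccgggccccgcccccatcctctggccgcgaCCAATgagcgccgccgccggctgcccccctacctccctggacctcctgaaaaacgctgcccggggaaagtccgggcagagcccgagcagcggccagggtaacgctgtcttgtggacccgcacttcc
BTG3, chr21:18985170-18985469, minus strand: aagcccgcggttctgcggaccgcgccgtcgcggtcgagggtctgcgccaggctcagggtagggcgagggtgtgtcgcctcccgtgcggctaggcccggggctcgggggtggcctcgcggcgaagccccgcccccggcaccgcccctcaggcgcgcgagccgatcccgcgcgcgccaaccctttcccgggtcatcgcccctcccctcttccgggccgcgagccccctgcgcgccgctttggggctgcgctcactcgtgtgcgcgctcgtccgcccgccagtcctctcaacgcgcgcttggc
TOB2, chr22:41842756-41843055, minus strand: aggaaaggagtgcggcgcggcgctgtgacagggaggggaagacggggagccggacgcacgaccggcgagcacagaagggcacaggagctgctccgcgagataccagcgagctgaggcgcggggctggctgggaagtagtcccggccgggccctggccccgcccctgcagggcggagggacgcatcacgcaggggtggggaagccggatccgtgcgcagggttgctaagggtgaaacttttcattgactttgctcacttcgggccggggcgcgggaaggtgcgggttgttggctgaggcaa

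The windows of these 3 genes were rich in G and C, at 73.3% for BTG2, 77.3% for BTG3 and 68.7% for TOB2. The BTG2 window held CCAAT at positions −76 to −72, counted from −1 at the base before the start, whereas the BTG3 and TOB2 windows had no match on either strand. CCAAT was present in 34.6% of 35116 promoters of the same length. For BTG1 the window (chr12:92539573-92539872, minus strand) held ATTGG, the same element on the other strand, at −87 to −83. It also held TGTTTAC, the reverse complement of gtaaaca, the core bound by FOXO factors, at −209 to −203, and that core was present on either strand in 3.42% of all promoters. TOB1 has 2 annotated starts, and the window of the second held CCAAT at −186 to −182. No member window held the p53 consensus decamer, the unit of which p53 response elements are built (6.63% of promoters), or the E2F sites tttggcgc and tttcgcgc (1.15%). These are exact matches of letters in short windows. A p53 or E2F site that departs from the consensus would not have been found, and sites elsewhere in the genes were not searched.

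BTG2 has its exons at chr1:203274619-203278730 on the plus strand and TOB2 at chr22:41829498-41842805 on the minus strand, and neither overlapped an exon of another annotated gene. BTG1 lies at chr12:92534054-92539622 on the minus strand and shares exon sequence with LINC01619 on the same strand and with BTG1-DT on the opposite strand. BTG3 (chr21:18965971-18985263, minus strand) shares exons with BTG3-AS1, and TOB1 (chr17:48939584-48945339, minus strand) with TOB1-AS1, both on the opposite strand. Of all 50-base stretches in the exons, 12.2% in BTG1, 9.79% in BTG3 and 7.30% in TOB1 lay in such shared sequence, so a small part of their reads could belong to the partner. No 50-base stretch was shared between members.

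Total counts on genes ranged from 12704845 to 40231041 per library, with a median of 29608936. The shallowest was N+PD30 replicate 1. That library had the lowest level of its group for each of the 5 members, and so had N+PD24 replicate 2 in its own group, which was among the deepest at 36939725 reads. The lowest count of any member in any library was 103 reads, for BTG2 in PD24. Levels are given as CPM, the count of a gene per 1e6 counts of its library. As a check of the label, 9 of 12 osteoblast lineage markers were high enough to be tested with Nutlin against DMSO, among them RUNX2 (18.2 to 34.5 CPM over all libraries), COL1A1 (1122 to 3697 CPM), ALPL (10.6 to 112 CPM) and SPP1 (5.70 to 55.5 CPM). The other 3, SP7, BGLAP and IBSP, stayed at or under 0.244 CPM. Markers of other lineages were mixed. Hematopoietic PTPRC and CD3E stayed at or under 0.492 CPM, but CD14 ranged from 2.49 to 15.03 CPM. Epithelial EPCAM, CDH1 and KRT19 stayed at or under 1.65 CPM, but KRT8 ranged from 9.47 to 36.9 CPM and KRT18 from 79.8 to 251 CPM. Endothelial CDH5 stayed at or under 0.123 CPM, PECAM1 ranged from 0.464 to 2.36 CPM and VWF from 1.27 to 13.5 CPM. With Nutlin alone 2 of 2 endothelial markers tested rose, and of 4 epithelial markers 2 rose and 1 fell, where 54.6% of all genes passed. The summed endothelial level was 1.85 to 3.04 CPM in DMSO and 6.19 to 8.29 CPM in Nutlin, and the part of these genes in the results on the family was not tested. In bulk RNA, fewer cells that express a gene and less RNA per cell cannot be told apart.

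Under Nutlin alone, 3 of the 5 members passed the test against DMSO at an adjusted p of 0.05, where 54.6% of the 15766 genes tested did so. BTG2 and TOB1 were higher, TOB2 was lower, and BTG1 and BTG3 did not pass. Under PD30 and under PD24, BTG1, BTG2 and BTG3 were lower than in DMSO, and neither TOB gene passed. Of all genes 48.3% passed in PD30 against DMSO and 25.4% were lower, and 38.3% passed in PD24 against DMSO and 20.8% were lower. With Nutlin present, continuous PD0332991 went with more BTG2 and TOB2 and less BTG3 than Nutlin alone (3 of 5 passed, background 49%). Pretreatment went with less of BTG2, BTG3, TOB1 and TOB2 (4 of 5, background 35.4%, and 17.8% for lower genes). With 5 members these counts are small, and what follows concerns the direction and size of each gene. The libraries of all 6 conditions each serve in several comparisons, which are therefore not independent.

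**Figure D1:**
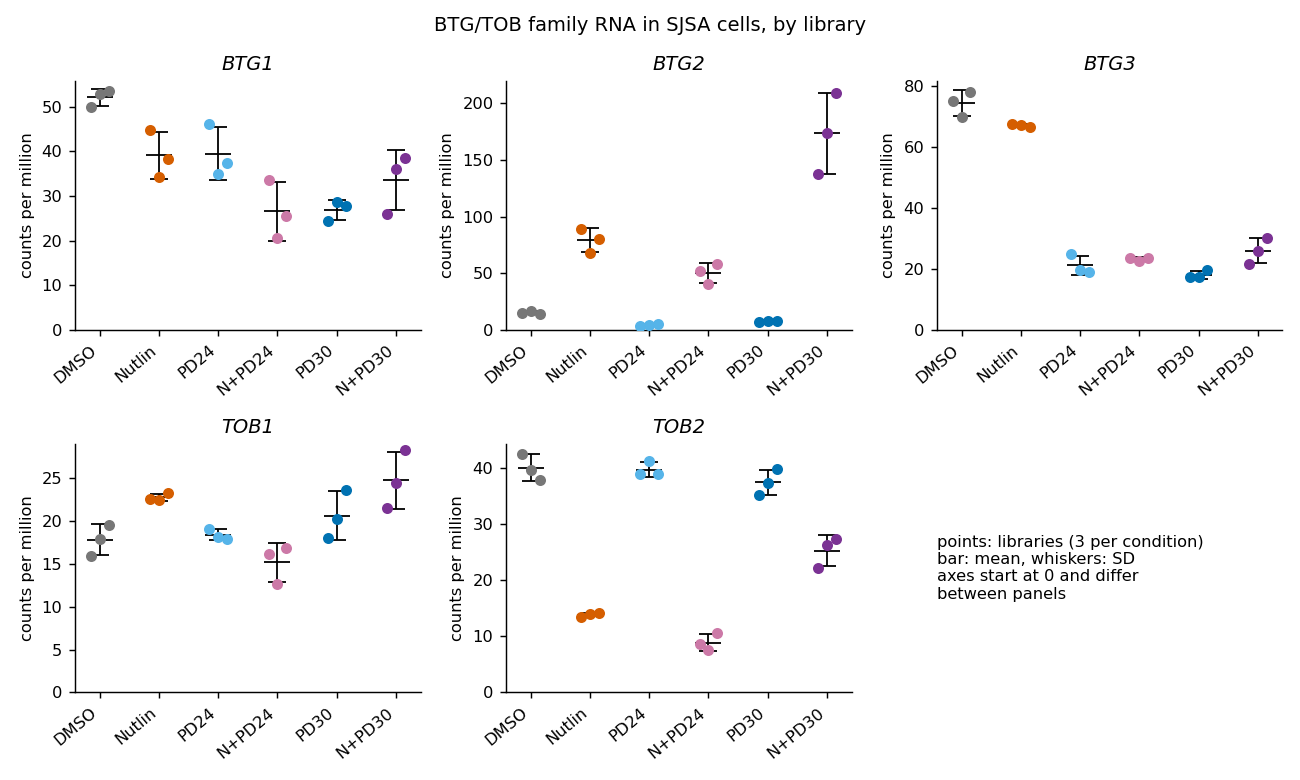
CPM of each member (vertical axes, starting at 0 and differing between panels) in the 6 conditions (horizontal axis), with points for libraries and bars and whiskers for the mean and SD of 3 libraries. BTG2 spans a mean of 4.42 in PD24 to 174 CPM in N+PD30, and BTG3 is low in all 4 conditions with PD0332991. TOB2 is lower in every library with Nutlin than in any without, least so in N+PD30, and TOB1 stays between 12.6 and 28.2 CPM.

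BTG2 had the widest range of the family. In DMSO it measured 15.1, 16.4 and 13.8 CPM in replicates 1 to 3. With Nutlin it measured 88.7, 67.6 and 80.6 CPM, every library far above every DMSO library. The difference was 2.51 on the log2 scale (SE 0.127, a 5.70-fold rise, adjusted p 9.14e-07 by edgeR). It lay at the 96.0th percentile of the changes of all genes tested.

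PD0332991 alone went with less BTG2. The PD24 libraries measured 3.70, 4.34 and 5.22 CPM and the PD30 libraries 6.68, 7.73 and 8.09 CPM, and neither group overlapped DMSO or the other. Against DMSO the level fell by 1.75 on the log2 scale in PD24 (SE 0.163, adjusted p 5.43e-05, edgeR) and by 1.02 in PD30 (SE 0.131, adjusted p 0.000192). PD30 exceeded PD24 by 0.72 (SE 0.175, adjusted p 0.0160), where 25.2% of genes passed. That last difference was 0.61 without PD24 replicate 1, 0.69 without PD30 replicate 2 and 0.68 without PD30 replicate 3, with adjusted p-values of 0.0531, 0.0520 and 0.0534.

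With both drugs the 2 schedules parted. N+PD24 gave 51.7, 40.3 and 58.1 CPM, below every library of Nutlin alone. N+PD30 gave 138, 174 and 210 CPM, above every library of any other condition. Against Nutlin alone BTG2 fell by 0.58 with pretreatment (SE 0.147, adjusted p 0.0130, limma) and rose by 1.09 with continuous PD0332991 (SE 0.155, a 2.13-fold rise, adjusted p 0.000240, edgeR). The direct comparison of N+PD30 with N+PD24 gave 1.65 (SE 0.168, a 3.14-fold difference, adjusted p 0.000285, limma), where 32.4% of genes passed.

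Set against the matching PD0332991 schedule, the Nutlin response of BTG2 was larger than without PD0332991. It was 4.62 on the log2 scale in N+PD30 against PD30 (SE 0.167, a 24.6-fold rise, adjusted p 2.98e-06, edgeR) and 3.37 in N+PD24 against PD24 (SE 0.171, adjusted p 1.66e-06, limma), both at the 99.9th percentile of all genes. The interaction term, which tests the difference between the Nutlin responses, was 2.16 for continuous PD0332991 (SE 0.207, adjusted p 8.79e-05), at the 99.6th percentile. For pretreatment it was 0.94 (SE 0.213, adjusted p 0.0417, limma). The second value was the only member interaction to pass there, where 1.71% of genes did. It passed only narrowly, and it no longer passed in most fits with 1 library left out. Without DMSO 1, 2 or 3, Nutlin 2 or 3, PD24 1 or 2, or N+PD24 1 or 3 it was 0.84 to 1.00 with adjusted p-values of 0.0658 to 0.151. The limma values are on log2(CPM + 1), which understates changes of low genes, and BTG2 was low in PD24. Over all alternatives the response in N+PD24 against PD24 was 3.23 to 3.63 and the PD24 interaction was 0.84 to 1.13.

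BTG3 was low in every condition with PD0332991. In DMSO it measured 75.0, 69.7 and 78.1 CPM, and with Nutlin alone 67.4, 67.2 and 66.4 CPM. The groups did not overlap in CPM, but the fitted difference was −0.022 on the log2 scale (95% interval −0.217 to 0.173, adjusted p 0.849, edgeR), and its sign changed with the scaling: −0.15 when scaled by total counts and 0.087 with upper-quartile scaling.

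In every library with PD0332991 BTG3 was well below DMSO. PD24 gave 24.8, 19.6 and 19.0 CPM and PD30 gave 17.4, 17.3 and 19.6 CPM. The fall against DMSO was 1.79 on the log2 scale in PD24 (SE 0.128, adjusted p 8.97e-06) and 2.05 in PD30 (SE 0.0922, adjusted p 1.43e-07, edgeR), the latter 4.14-fold and at the 3.37th percentile of all genes. PD30 and PD24 overlapped, with a difference of −0.26 (95% interval −0.57 to 0.053, adjusted p 0.199).

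Adding Nutlin left BTG3 low. N+PD24 gave 23.6, 22.6 and 23.6 CPM and N+PD30 gave 21.7, 25.9 and 30.0 CPM, all under the lowest library of Nutlin alone. The change against Nutlin alone was −1.42 (SE 0.0999, adjusted p 6.69e-06, limma) for N+PD24 and −1.41 (SE 0.131, adjusted p 1.33e-05, edgeR) for N+PD30, and the 2 combinations did not differ measurably (0.020, 95% interval −0.28 to 0.32). Within continuous PD0332991, Nutlin went with more BTG3 (0.61, SE 0.130, adjusted p 0.0201), in a comparison where 14.5% of genes passed. The interaction with PD30 was 0.68 (SE 0.149, adjusted p 0.00662). The rise of 0.61 did not pass without PD30 replicate 1 (0.57, adjusted p 0.0933), PD30 replicate 2 (0.58, adjusted p 0.0656) or N+PD30 replicate 2 (0.61, adjusted p 0.0834). Between N+PD24 and PD24 the difference was 0.29 (adjusted p 0.133), and with the replicate number as a block it passed (adjusted p 0.0426).

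The 13 proliferation genes of a fixed list (mitotic kinases, cyclins and the like) fell along with BTG3 under PD0332991. Their summed level was 4147 to 4506 CPM in DMSO, 2101 to 2976 in Nutlin, 72.2 to 111 in PD30 and 47.1 to 65.9 in N+PD30, and all 13 fell in PD30 against DMSO, with a median of −5.46. Of all genes 25.4% were lower in that comparison. Under Nutlin alone, where 54.6% of all genes passed in either direction, 11 of the 13 fell while BTG3 did not pass. Within continuous PD0332991, Nutlin went with 3 of the 13 lower and none higher (median −0.65), while BTG3 was 0.61 higher. In that comparison 14.5% of all genes passed in either direction. The part of the proliferation genes in the lower level of BTG3 was not tested.

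BTG1 was highest in DMSO, at 50.0, 52.9 and 53.6 CPM, and every library of every other condition lay below. Nutlin alone gave 44.8, 34.2 and 38.2 CPM, a difference of −0.29 on the log2 scale (SE 0.114, adjusted p 0.0521, edgeR) that missed the threshold. It passed with no filter on low counts (−0.33, adjusted p 0.0372), with total scaling (−0.42, adjusted p 0.0116) and without Nutlin replicate 1 (−0.41, adjusted p 0.00610). PD30 gave 24.3, 28.6 and 27.7 CPM, a fall of 0.97 (SE 0.0958, 1.96-fold, adjusted p 3.60e-05), which held in every fit tried.

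PD24 gave 46.2, 34.9 and 37.4 CPM of BTG1, overlapping Nutlin alone. The difference from DMSO was −0.38 (SE 0.121, adjusted p 0.0356) and did not pass with upper-quartile scaling (−0.32, adjusted p 0.0698) or without DMSO 1, 2 or 3 or PD24 2 or 3 (−0.41 to −0.32, adjusted p 0.0596 to 0.118). BTG1 was lower in PD30 than in PD24 by 0.59 on the log2 scale (SE 0.136, adjusted p 0.0131), and without PD30 replicate 1 the difference was −0.52 with an adjusted p of 0.0661. Of the 2 schedules, the one with the drug still present had less BTG1 and more BTG2.

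With both drugs BTG1 measured 33.6, 20.5 and 25.6 CPM in N+PD24 and 25.9, 36.2 and 38.5 CPM in N+PD30. Against Nutlin alone the differences were −0.49 (adjusted p 0.0647, limma) and −0.26 (adjusted p 0.201, edgeR), and neither passed. In N+PD24 the same-numbered libraries deviated together, and with the replicate number as a block the first difference passed (adjusted p 0.000192). It also passed with total scaling (−0.56, adjusted p 0.0393) and without N+PD24 replicate 1 (−0.71, adjusted p 0.00464). Nutlin added to pretreatment gave −0.42 (adjusted p 0.102, limma) with non-overlapping groups, and 36.9% of genes passed in that comparison. The difference passed with total scaling (−0.57, adjusted p 0.0370), without N+PD24 replicate 1 (−0.62, adjusted p 0.0201) and with the block (adjusted p 0.00455). Nutlin added to continuous PD0332991 gave 0.41 (adjusted p 0.0969, edgeR), 0.40 with the block (adjusted p 0.0217) and 0.57 without N+PD30 replicate 1 (adjusted p 0.0250). The interaction with PD30 was 0.75 (SE 0.194, adjusted p 0.0154), so the Nutlin response of BTG1 differed with continuous PD0332991, and that with PD24 was −0.14 (95% interval −0.65 to 0.38).

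TOB2 was the member that fell with Nutlin. In DMSO it measured 42.6, 39.7 and 37.9 CPM, and with Nutlin alone 13.5, 14.1 and 14.1 CPM. The fall was 1.40 on the log2 scale (SE 0.104, 2.64-fold, adjusted p 5.92e-06, edgeR), at the 3.75th percentile of all genes. PD0332991 alone gave values that overlapped those of DMSO, 38.9, 41.4 and 39.0 CPM in PD24 and 35.3, 37.3 and 39.8 CPM in PD30. The differences were 0.012 (95% interval −0.22 to 0.25) and −0.11 (95% interval −0.32 to 0.095), and neither passed.

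The 2 combinations lay on either side of Nutlin alone. N+PD24 gave 8.69, 7.5 and 10.5 CPM of TOB2, below every Nutlin library, and N+PD30 gave 22.2, 26.4 and 27.4 CPM, above every Nutlin library and below every DMSO, PD24 and PD30 library. Against Nutlin alone TOB2 fell by 0.53 in N+PD24 (SE 0.139, adjusted p 0.0153, limma; −0.45 and adjusted p 0.0554 without N+PD24 replicate 2) and rose by 0.82 in N+PD30 (SE 0.135, 1.77-fold, adjusted p 0.000586, edgeR). N+PD30 exceeded N+PD24 by 1.30 (SE 0.152, 2.47-fold, adjusted p 0.000477, limma). The response to Nutlin was −1.91 within pretreated cells (SE 0.143, adjusted p 1.50e-05), at the 0.127th percentile of all genes, and −0.47 within continuous PD0332991 (SE 0.110, adjusted p 0.0271). The latter did not pass without PD30 1, 2 or 3 or N+PD30 1 or 2 (−0.53 to −0.39, adjusted p 0.0598 to 0.108). The interaction with PD30 was 0.98 (SE 0.145, adjusted p 0.000658), and that with PD24 was −0.57 (95% interval −0.92 to −0.23, adjusted p 0.104), short of the threshold.

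TOB1, the closest relative of TOB2, moved little. It measured 15.9, 17.9 and 19.6 CPM in DMSO and 22.6, 22.4 and 23.2 CPM in Nutlin, without overlap, a rise of 0.48 (SE 0.115, 1.40-fold, adjusted p 0.00551, edgeR). PD24 gave 19.1, 18.1 and 17.9 CPM and PD30 gave 17.9, 20.2 and 23.6 CPM, both overlapping DMSO (0.070, 95% interval −0.21 to 0.35, and 0.20, 95% interval −0.096 to 0.49). N+PD24 gave 16.1, 12.6 and 16.8 CPM and N+PD30 gave 21.5, 24.4 and 28.2 CPM. Against Nutlin alone TOB1 fell by 0.50 in N+PD24 (SE 0.134, adjusted p 0.0177, limma). This did not pass without Nutlin replicate 2 (−0.51, adjusted p 0.0508) or N+PD24 replicate 2 (−0.40, adjusted p 0.0567). In N+PD30 the difference from Nutlin was 0.078 (95% interval −0.21 to 0.37).

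N+PD30 had more TOB1 than N+PD24, by 0.55 (SE 0.152, adjusted p 0.0210, limma). Without N+PD24 replicate 2 this was 0.42 (adjusted p 0.111), without N+PD30 replicate 2 it was 0.57 (adjusted p 0.0747) and without N+PD30 replicate 3 it was 0.47 (adjusted p 0.0592). Nutlin added to PD30 gave 0.35 (adjusted p 0.124), which passed with the replicate number as a block (adjusted p 0.0282). Neither interaction passed for TOB1 (−0.081 with PD30 and −0.59 with PD24, adjusted p 0.797 and 0.123). In the interaction with PD30, 4 of the 5 members passed, all with a positive term, which for TOB2 is a smaller fall with Nutlin. Of all genes 19.8% passed there in either direction and 12.8% with a positive term.

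**Figure D2:**
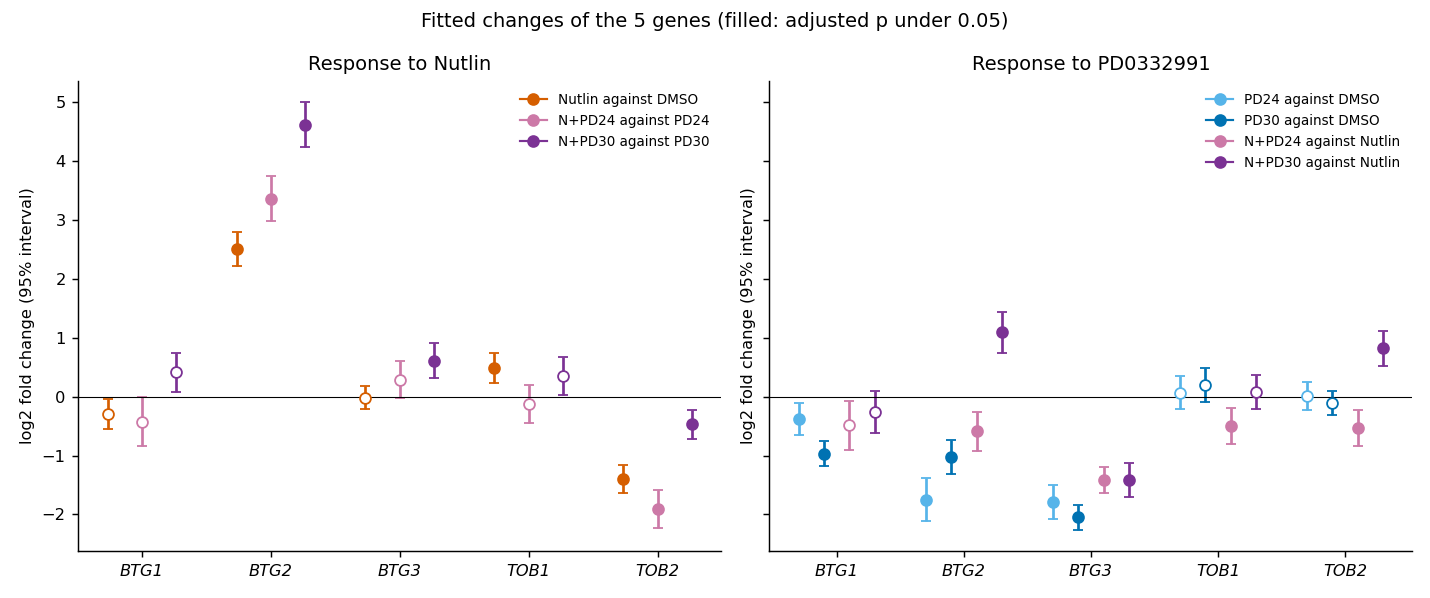
Fitted log2 fold changes (vertical axis) of the 5 members (horizontal axis) for Nutlin with and without PD0332991 on the left and for PD0332991 with and without Nutlin on the right, with 95% intervals and filled points where the adjusted p was under 0.05. BTG2 rose with Nutlin by 2.51, 3.37 and 4.62, TOB2 fell by 1.40, 1.91 and 0.47, and BTG3 fell with PD0332991 by 1.41 to 2.05 whether Nutlin was present or not. Changes that involve N+PD24 are from limma on log2(CPM + 1), and the others are from edgeR.

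The order of the conditions differed between members. Levels of BTG2 ran upward from PD24 through PD30, DMSO, N+PD24 and Nutlin to N+PD30, and no neighbours in that order overlapped. TOB2 was lowest in N+PD24, then Nutlin, then N+PD30, each apart from the next, and PD30, PD24 and DMSO followed with overlapping values. For BTG3 the 4 conditions with PD0332991 overlapped from one to the next, then came Nutlin and then DMSO, each apart. For BTG1 only DMSO stood apart from its neighbour, and for TOB1 every pair of neighbours overlapped. The highest mean exceeded the lowest 39.3-fold for BTG2, 4.50-fold for TOB2, 4.10-fold for BTG3, 1.96-fold for BTG1 and 1.63-fold for TOB1.

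To compare levels between genes, CPM were divided by the joined length of the exons of all GENCODE transcripts of the gene, in kilobases. That length was 4855 bases for BTG1 and 2304 bases for BTG3. The annotation on which the authors counted reads may differ, so the shares, the ranking and the sums depend on this choice of length. In DMSO BTG3 was the most abundant member on this scale, with 49.8% of the summed family level, followed by BTG1 at 16.6%, TOB2 at 14.3%, TOB1 at 10.9% and BTG2 at 8.49%. With Nutlin alone BTG2 (36.6%) and BTG3 (37.4%) held like shares, and TOB2 was down to 4.12%. In PD30 TOB2 (26.3%), TOB1 (24.7%) and BTG3 (23.9%) held similar shares and BTG2 had 8.26%. In N+PD30 BTG2 alone held 64.9%, against 43.3% in N+PD24.

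The summed level itself was 64.7 CPM per kb in DMSO (SD 1.54, n = 3), 78.0 in Nutlin (SD 4.94), 35.4 in PD24 (SD 2.43), 32.9 in PD30 (SD 2.71), 41.8 in N+PD24 (SD 5.61) and 96.7 in N+PD30 (SD 18). PD0332991 alone went with a lower family total, in which the share of BTG3 was smaller. The largest mean total was found in N+PD30, where the share of BTG2 was the highest. Its libraries (78.4 to 114) overlapped those of Nutlin alone (72.9 to 82.7), and the totals were not tested. The ratio of TOB2 to TOB1 per kb had a median of 1.29 in DMSO, 0.354 in Nutlin, 0.346 in N+PD24 and 0.60 in N+PD30. For BTG2 over BTG1 it was 0.533 in DMSO, 3.49 in Nutlin, 0.219 in PD24, 0.484 in PD30, 3.46 in N+PD24 and 9.37 in N+PD30. Such a ratio within a library does not depend on the scaling between libraries.

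**Figure D3:**
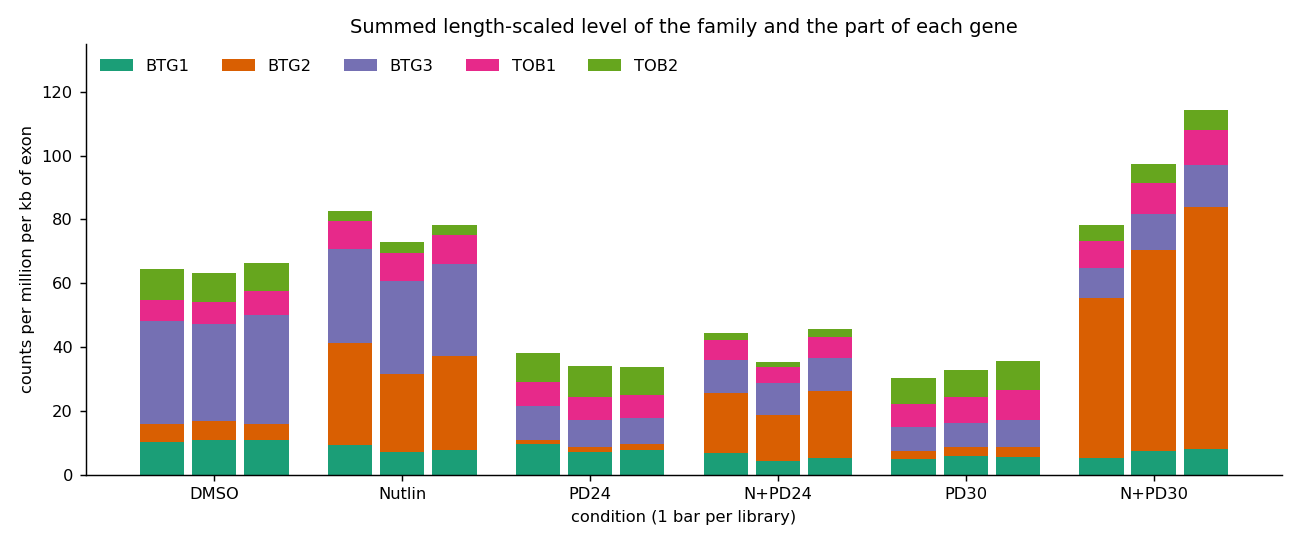
Summed level of the family in CPM per kb of exon (vertical axis, from 0) in each library (1 bar each, 3 per condition), split by member. The sum is 63.4 to 66.4 in DMSO, between 30.2 and 38.2 in PD24 and PD30, and reaches 78.4 to 114 in N+PD30, where BTG2 makes up 63.8% to 66.4% of it.

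The partners through which the family acts were described from lists fixed for this comparison. Of 12 CCR4-NOT subunits, 8 fell with Nutlin alone and none rose (median −0.48, against 0.028 over all genes). Of all genes 54.6% passed in that comparison in either direction, and 48.7% of those calls were higher. Several of the list counts below lie near or under such shares, and no list was tested as a set. CNOT7, the deadenylase that the BTG domain binds, fell by 0.50 on the log2 scale (SE 0.0958, adjusted p 0.00153), from a mean of 164 to 106 CPM. Its close relative CNOT8 fell by 0.81 (SE 0.109, adjusted p 0.000179), from 76.0 to 39.7 CPM. Of the other pair of catalytic subunits, CNOT6L fell by 1.29 and CNOT6 did not pass (0.11, adjusted p 0.377). The associated TNKS1BP1 fell by 1.06. Total scaling moved the median of all genes by −0.126 and upper-quartile scaling by 0.108, less than any of these falls.

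In PD30 against DMSO 6 of the 12 subunits fell and 1 rose (median −0.26), where 48.3% of all genes passed and 25.4% were lower. CNOT10 fell by 0.78 and CNOT6L by 0.72, TNKS1BP1 rose by 0.57, and CNOT7 (−0.12, adjusted p 0.331) and CNOT8 (−0.19, adjusted p 0.102) did not pass. In N+PD30 against Nutlin, where 49% of all genes passed, 1 subunit rose and 2 fell (median −0.054). These were TNKS1BP1 (1.35), the scaffold CNOT1 (−0.50) and CNOT6 (−0.41). CNOT8 was lower in N+PD24, at 26.4 CPM, than in Nutlin alone by 0.50 (SE 0.119, adjusted p 0.00971, limma), while CNOT7 gave −0.031 there. CNOT8 also passed in the interaction with PD30 (0.48, adjusted p 0.0292), in which 5 of the 12 subunits were higher and none lower. Of all genes 12.8% were higher in that interaction.

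PABPC1, the poly(A)-binding protein that TOB proteins contact, rose by 0.45 with Nutlin alone (SE 0.0983, adjusted p 0.00336), from 1001 to 1252 CPM, and in N+PD30 it was lower than in Nutlin by 0.43 on the log2 scale (edgeR, adjusted p 0.0152). Among the 14 other mRNA decay factors, which include PABPC1, 4 rose and 7 fell with Nutlin alone (median −0.25), where 54.6% of all genes passed. The deadenylase PAN2 rose by 0.99 and the decapping cofactor DCP1B by 0.62, whereas PATL1 fell by 0.63 and the decapping enzyme DCP2 by 0.58. In PD30 against DMSO 1 rose (DCP1B, 0.36) and 4 fell, among them DCP2 (−0.80) and EDC4 (−0.60). In N+PD30 against Nutlin 2 rose, EDC3 (0.63) and DCP1B (0.43), and 4 fell, with PAN2 and PABPC4 both at −0.88. The shares of all genes that passed were 48.3% in PD30 against DMSO and 49% in N+PD30 against Nutlin.

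Of 16 adapters and other binding partners, 3 rose and 9 fell with Nutlin alone (median −0.34), where 54.6% of all genes passed. SMAD1, a transducer of BMP signals that TOB1 binds, fell by 1.46, and HOXB9, a homeobox factor bound by BTG1 and BTG2, fell by 0.95. TNRC6B of the miRNA silencing complex rose by 0.61 and the RNA-binding protein CPEB2 by 0.55. In PD30 against DMSO 5 rose and 5 fell (median −0.086), with CPEB1 at 0.64, CPEB2 at 0.60, SMAD1 at −0.92 and ZFP36L2 at −0.69. In N+PD30 against Nutlin 4 rose and 2 fell (median 0.14), led by HOXB9 (1.15) and the mRNA decay adapter ZFP36L1 (0.95), with falls of ZFP36L2 (−0.41) and TNRC6B (−0.37). Among all genes 48.3% passed in PD30 against DMSO and 49% in N+PD30 against Nutlin. The arginine methyltransferase PRMT1, bound by BTG1 and BTG2, did not pass in any comparison (0.30 with Nutlin alone, adjusted p 0.0918).

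The p53 targets of a fixed list that holds no member all rose with Nutlin alone, 24 of 24, with a median of 2.0 and CDKN1A (4.56) and GDF15 (4.27) in front, so BTG2 at 2.51 lay somewhat above the middle of them. In PD30 against DMSO 4 of 23 rose and 11 fell (median −0.21), GDF15 (1.24) and ZMAT3 (0.75) against POLH (−1.63) and DDB2 (−1.38). In N+PD30 against Nutlin 5 of 24 rose and 10 fell (median −0.19). The rises were led by GADD45A (1.15) and PHLDA3 (1.12), near the 1.09 of BTG2, and the falls by the cell cycle inhibitor SFN (−2.64) and MDM2 (−1.70). SFN was a low gene, with a mean of 1.18 CPM in Nutlin and 0.199 CPM in N+PD30, where no library exceeded 5 reads. In the interaction with PD30, 5 of these targets were higher and 4 lower, and in that with PD24, 4 were higher and none lower. For all genes the share that passed was 54.6% with Nutlin alone, 48.3% in PD30 against DMSO and 49% in N+PD30 against Nutlin. It was 19.8% in the interaction with PD30 and 1.71% in that with PD24.

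Because BTG1 and other quiescence genes are known FOXO targets, 14 FOXO factors and targets were read as well, 13 of which were tested. With Nutlin alone none rose and 7 fell (median −0.39), led by TXNIP (−1.60) and the apoptosis gene BCL2L11 (−1.04). In PD30 against DMSO 1 rose, the PI3K inhibitor PIK3IP1 (1.74), and 4 fell, led by BCL2L11 (−2.55) and SESN3 (−1.84). In N+PD30 against Nutlin 2 rose, PIK3IP1 (1.99) and TXNIP (1.35), and 3 fell, led by SESN3 (−1.90) and BCL2L11 (−1.36). Both leading falls were of low genes. SESN3 had at most 29 reads in PD30 and 17 in N+PD30, and BCL2L11 at most 48 and 40. In PD24 against DMSO none rose and 8 fell (median −0.66), where 38.3% of all genes passed and 20.8% were lower. Passing genes made up 54.6% of all with Nutlin alone, 48.3% in PD30 against DMSO and 49% in N+PD30 against Nutlin.

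**Figure D4:**
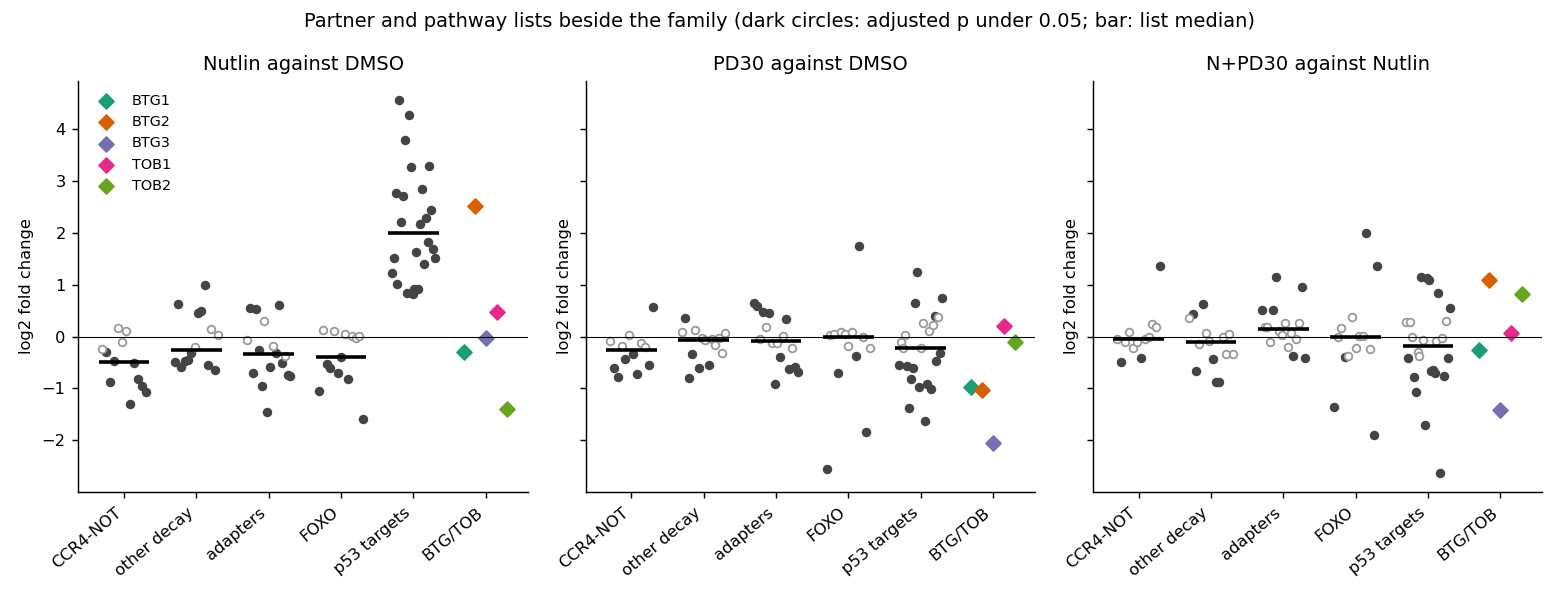
Fitted log2 fold changes (vertical axis) of the genes of each list (circles, dark where the adjusted p was under 0.05, with a bar at the median) and of the 5 members (diamonds, shown whether called or not) in 3 comparisons. With Nutlin alone the p53 targets lie between 0.82 and 4.56 with BTG2 among them, and the CCR4-NOT median is −0.48 with TOB2 below it at −1.40.

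Across the 18 libraries the genes whose level ran most like that of each member were read as a description, among 9493 genes with a mean of 10 CPM or more and on log2(CPM + 1), where libraries of one condition and the scaling are shared. BTG2 was closest to AEN (Pearson r 0.971), FBXO22 (0.968) and SESN1 (0.953). BTG3 was closest to NEURL1B (0.970), the mitotic kinase AURKB (0.970) and NRM (0.969). TOB2 was closest to ISG20L2 (0.988), ZBTB39 (0.987) and MSL3P1 (0.986). For BTG1 and TOB1 the values were lower, led by IQCB1 (0.875), FLI1 (0.849) and TPRKB (0.849) for BTG1 and by RFX7 (0.832), EPM2AIP1 (0.820) and ZNF37A (0.818) for TOB1. Among the members themselves, BTG1 and BTG3 had the highest value (0.712) and BTG2 and TOB2 the lowest (−0.620).

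BTG4, the remaining family gene, known from oocytes and early embryos, was not among the members. It reached at most 16 reads in any library (N+PD24), with 0 reads in all 3 DMSO libraries. Taken alone, a library with 0 reads allows an expected count of up to 3 by counting error.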

How the data were processed

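RNA of 18 libraries (TruSeq RNA LT kit, single 50-base reads) was analysed in 6 groups taken from the sample labels. Alignment by the authors used TopHat and Bowtie 2 against hg19, and HTSeq 0.6.0, set to reverse strand, gave one count for each gene symbol. Whether the kit keeps the strand is not given in the sources used here. The authors deposited whole-number counts, named as variance-stabilized, for 5 groups. For N+PD24 they deposited a normalized signal, counts divided by a size factor per library, of which 100% of values gave whole reads within a tolerance of 0.01. The DMSO and Nutlin columns repeated between tables were identical. Size-factor-normalized copies and the authors' own comparison of Nutlin with DMSO (base means, log2 fold changes, standard errors, statistics and p-values) were not used. Of the rows, 28 carry names turned into dates and 2 names stand on more than 1 row.

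Groups deposited as counts were compared 2 at a time by the quasi-likelihood test of edgeR 4.0.16 (R 4.3.3) with TMM normalization and filterByExpr. Comparisons with N+PD24 used limma 3.58.1 with a trend on log2(CPM + 1), for genes at 0.5 CPM or more in at least 3 libraries, where changes of low genes are understated. Benjamini-Hochberg adjustment ran over all genes tested, and an adjusted p under 0.05 was called. All 5 members passed the filters in each of the 11 comparisons, 55 tests in all. Interactions used 12 libraries. The fits were tested on simulated data. Alternatives were no filter, DESeq2 1.42.0, total and upper-quartile scaling, a replicate block, 1 fit over all groups of counts, a pseudocount of 0.25, edgeR on the recovered reads, and each library left out. Replicate numbers come from the labels. Same-numbered samples deviated together, with every pair correlating above 0.1, in N+PD24 against Nutlin (0.424 to 0.656), N+PD30 against PD30 (0.195 to 0.690), N+PD24 against PD24 (0.212 to 0.528) and PD30 against PD24 (0.312 to 0.597).

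Positions are from GENCODE lifted to GRCh37, and promoter windows from RefSeq, placed on GRCh37 by exact match. From each list the 2 largest rises and falls past the threshold are named in 3 comparisons, and CNOT7, CNOT8, PABPC1 and PRMT1 always. The members and lists were chosen with earlier results of these data known. Intervals cover 95% and the spread between libraries. Of the cell type markers read, 1 is not reported here, and the others are named or stand within the counts of their lists.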

Additional observations from a re-analysis of the deposited data

Results flagged for a closer look

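For 4 members the response to Nutlin differed with continuous PD0332991 by the interaction term over 12 libraries (edgeR). Of all genes 19.8% passed in that interaction in either direction, and 12.8% were higher. The term was 2.16 for BTG2, 0.98 for TOB2, 0.75 for BTG1 and 0.68 for BTG3. In each case it passed in every one of the fits with 1 library left out. For BTG1 the highest adjusted p of those fits was 0.0485 (edgeR). Over all alternatives the term was 0.57 to 0.87 for BTG1 and 0.50 to 0.76 for BTG3. The Nutlin response without and with continuous PD0332991 was 2.51 and 4.62 for BTG2, −1.40 and −0.47 for TOB2, −0.29 and 0.41 for BTG1, and −0.022 and 0.61 for BTG3. Those of BTG1 did not pass on their own, and neither did that of BTG3 without PD0332991. With PD0332991 pretreatment the term of BTG2 was 0.94 (limma, adjusted p 0.0417), and that of the other members did not pass.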

How the results depend on the processing

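No called difference of a member changed direction under any alternative. With no filter on low counts BTG1 passed in Nutlin against DMSO (−0.33), and the PD24 interaction of BTG2 no longer passed (0.94, adjusted p 0.0613). With total scaling BTG1 passed in Nutlin against DMSO (−0.42), N+PD24 against Nutlin (−0.56) and N+PD24 against PD24 (−0.57), and the PD24 interaction of BTG2 did not (0.92, adjusted p 0.0577). With upper-quartile scaling BTG1 did not pass in PD24 against DMSO (−0.32). With the replicate block BTG1 passed in N+PD24 against Nutlin (−0.49), N+PD30 against PD30 (0.40) and N+PD24 against PD24 (−0.42), TOB1 in N+PD30 against PD30 (0.35) and BTG3 in N+PD24 against PD24 (0.29). The block changed no other call of a member. It raised the genes called from 5401 to 8326 in N+PD24 against Nutlin, from 2183 to 4375 in N+PD30 against PD30, from 3816 to 6107 in PD30 against PD24 and from 267 to 479 in the PD24 interaction. There edgeR on the recovered reads called 116. The cause of these changes was not tested.

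With 1 library left out, BTG1 ranged from −0.41 to −0.21 in Nutlin against DMSO, −0.51 to −0.32 in PD24 against DMSO, −0.71 to −0.34 in N+PD24 against Nutlin, 0.33 to 0.57 in N+PD30 against PD30, −0.62 to −0.25 in N+PD24 against PD24 and −0.66 to −0.47 in PD30 against PD24. BTG2 ranged from 0.61 to 0.85 in PD30 against PD24 and 0.84 to 1.09 in the PD24 interaction, and BTG3 from 0.52 to 0.72 in N+PD30 against PD30. TOB1 ranged from −0.58 to −0.40 in N+PD24 against Nutlin and 0.42 to 0.63 in N+PD30 against N+PD24, and TOB2 from −0.62 to −0.45 in N+PD24 against Nutlin and −0.53 to −0.39 in N+PD30 against PD30. The calls lost or gained are given with each result. The genes called in N+PD30 against PD30 were 583 without PD30 1, 1150 without PD30 2, 1064 without PD30 3, 625 without N+PD30 2 and 3384 without N+PD30 3. They were 3149 of 5499 in N+PD24 against PD24 without N+PD24 2, 2178 and 2520 of 3816 in PD30 against PD24 without PD30 1 and PD30 3, and 2733 and 3013 of 4836 in N+PD30 against N+PD24 without N+PD24 2 and N+PD30 2. In the PD24 interaction they were 126 to 141 without DMSO 1, 2 or 3 or Nutlin 2.

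The share of higher calls among all genes moved with the scaling, from 48.7% to 36.7% (total) and 58.9% (upper quartile) in Nutlin against DMSO, from 61.1% to 43.8% (total) in N+PD30 against PD30, from 45.2% to 28.7% (total) in N+PD24 against PD24, from 49.3% to 63.1% (total) in N+PD30 against N+PD24 and from 64.5% to 39.0% (upper quartile) in the PD30 interaction.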
